A study of Drosophila melanogaster with 8 samples.

Results

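The 10 cuticle protein genes described here are Cpr30B and Cpr30F, Cpr64Aa, Cpr64Ab, Cpr64Ac and Cpr64Ad, and Cpr76Ba, Cpr76Bb, Cpr76Bc and Cpr76Bd of Drosophila melanogaster, taken by name from a table of 13918 genes. They were picked because earlier results of these data showed several of them with very low values at 3 g and with 1 control pool far above the others. Their group differences and the position of that pool are therefore descriptions and carry no test. Of the 10, 6 read at most 6.47 TPM (transcripts per 1000000) in every pool at 3 g. The values go against a description of the set as low at 3 g for the other 4: Cpr64Ab and Cpr64Ad were higher at 3 g, Cpr64Ac stayed above 100 TPM in every pool, and Cpr76Bc overlapped between the groups.

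The study compared whole pupae of the wild-type strain Canton-S that developed at 3 g (hypergravity) with control pupae at 1 g, all collected at the early pupal stage P6 and carrying no named transgene or mutation. Each group had 4 libraries of polyadenylated RNA, each made from 4 pupae pooled whole, and a value therefore adds up every tissue. Cultures are described as kept at 25 °C. The question, as the series title gives it, is how the pupal transcriptome responds to development in hypergravity. Nothing in the labels says that pools came from separate cultures, so the spread between pools may be partly technical. In such bulk samples fewer cells that express a gene and less RNA per cell cannot be told apart.

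Cpr genes encode structural proteins of the cuticle that bind chitin through a conserved stretch called the Rebers and Riddiford consensus. Epidermal cells secrete a new cuticle at each moult, and each cuticle is built from its own selection of such proteins. In the fly a pupal cuticle is laid down first, and beneath it the adult cuticle with its bristles and wing surfaces follows. Pulses of the steroid hormone ecdysone, and the transcription factors that respond to it, time these waves.

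In the current annotation the 10 genes lay in 4 places. Cpr30B and Cpr30F were on chromosome arm 2L with 55 protein-coding genes between them, so they are not neighbours. The Cpr64A genes stood side by side on arm 3L, as did the Cpr76B genes elsewhere on that arm. Cpr64Ad and Cpr76Ba each ran opposite to the other 3 genes of their cluster. The predicted proteins ranged from 120 residues (Cpr64Ab) through 146 to 153 (Cpr30F and Cpr30B), 188 to 192 (Cpr64Ac and Cpr64Aa) and 198 to 204 (Cpr76Bb and Cpr76Ba) to 247 (Cpr64Ad), 424 (Cpr76Bc) and 1231 (Cpr76Bd). No exon of the 10 overlapped an exon of another gene, and no other gene had the same 8 values, which matters because reads shared between overlapping or similar genes would be split between them. Similarity between the transcripts was not examined, so reads shared between cluster members were not tested.

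Levels are given in transcripts per 1000000 (TPM), a length-scaled share of each library, for the 4 control pools and then the 4 pools at 3 g in order of replicate number. TPM holds no record of read depth, so counting error is unknown. Differences are those of mean log2(TPM + 0.5), 3 g minus control, with a standard error from the spread of 4 pools per group. The added 0.5 understates changes of low genes.

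Both Cpr30 genes were abundant in controls and at most 3.12 TPM at 3 g. Cpr30B read 84.8, 132.8, 437 and 3250.3 TPM in controls and 1.89, 2.77, 3.12 and 1.56 TPM at 3 g. Cpr30F read 116, 85.5, 381 and 3482 TPM in controls and 1.17, 0.83, 0.70 and 1.53 TPM at 3 g. The lowest control stood 27.2-fold above the highest 3 g pool for Cpr30B and 55.9-fold for Cpr30F. The log2 differences were -7.01 ± 1.19 for Cpr30B and -7.80 ± 1.22 for Cpr30F (SE, n = 4 pools per group). Control replicate 4 held most of the control level of both genes, 7.44 and 9.15 times the next control. Without that pool the differences were -5.95 and -6.68. The ratio of Cpr30B over Cpr30F lay between 0.733 and 1.55 in controls and was 1.62, 3.34, 4.46 and 1.02 at 3 g, where both genes were low.

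The 4 Cpr64A genes split into opposite patterns. Cpr64Aa read 156, 334, 590.3 and 3325 TPM in controls and 2.63, 2.22, 3.91 and 6.47 TPM at 3 g, a log2 difference of -7.14 ± 0.98. Its neighbour Cpr64Ab read 0.17, 0.79, 0.69 and 0.73 TPM in controls and 223, 169, 115 and 9.02 TPM at 3 g, a difference of 6.24 ± 1.07. Thus of 2 adjacent genes 1 was low in every pool at 3 g and the other in every control, and neither overlapped between groups. The high 3 g values of Cpr64Ab were uneven, since 3 g replicate 4 stood at 9.02 TPM against at least 115 TPM in the other 3.

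Cpr64Ac, between those 2 patterns, read 128, 223, 453 and 2893 TPM in controls and 105, 108, 111 and 107 TPM at 3 g. The groups did not overlap, but the lowest control was only 1.15 times the highest 3 g pool. The log2 difference of -2.02 ± 0.98 became -1.12 without control replicate 4. Its 4 pools at 3 g were close to one another, with an SD of 0.037 on the log2 scale, and 99.5% of all genes tested had a larger SD there. Cpr64Ad read 9.68, 7.00, 43.98 and 9.27 TPM in controls and 371, 323, 356 and 97.0 TPM at 3 g, a difference of 4.24 ± 0.74. As for Cpr64Ab, the lowest pool at 3 g was replicate 4, which still lay 2.21-fold above the highest control.

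**Figure D1:**
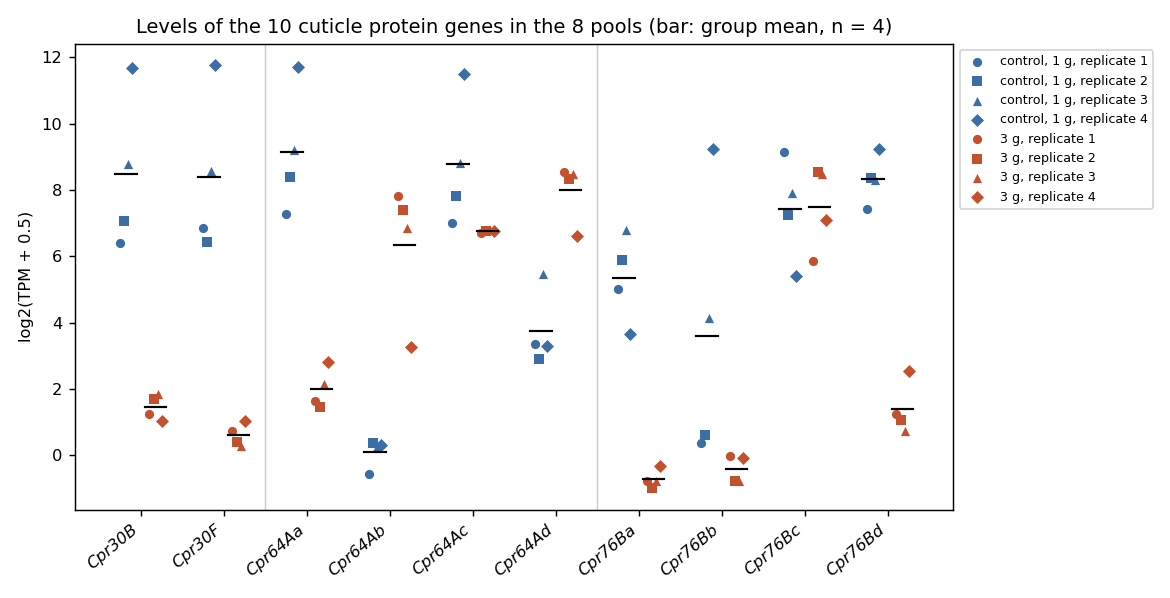
Level of each gene in each of the 8 pools as log2(TPM + 0.5), controls in blue and 3 g in orange, with 1 marker shape per replicate number and a black bar at each group's mean (n = 4). Control replicate 4 stands far above the other controls for Cpr30B, Cpr30F, Cpr64Aa, Cpr64Ac and Cpr76Bb, while Cpr64Ab and Cpr64Ad are the genes with higher values at 3 g.

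Within a pool, a ratio of 2 genes does not depend on how the libraries were scaled. Cpr64Aa over Cpr64Ab was 918, 423, 856 and 4555 in the controls and 0.0118, 0.0131, 0.0341 and 0.717 at 3 g. The ratio was above 1 in each control pool and below 1 in each pool at 3 g. Cpr64Ac over Cpr64Ad was 13.2, 31.9, 10.3 and 312 in controls and 0.282, 0.334, 0.312 and 1.10 at 3 g. For both ratios the 3 g pool nearest to the controls was replicate 4. It had the lowest Cpr64Ab and Cpr64Ad and the highest Cpr64Aa of its group.

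**Figure D2:**
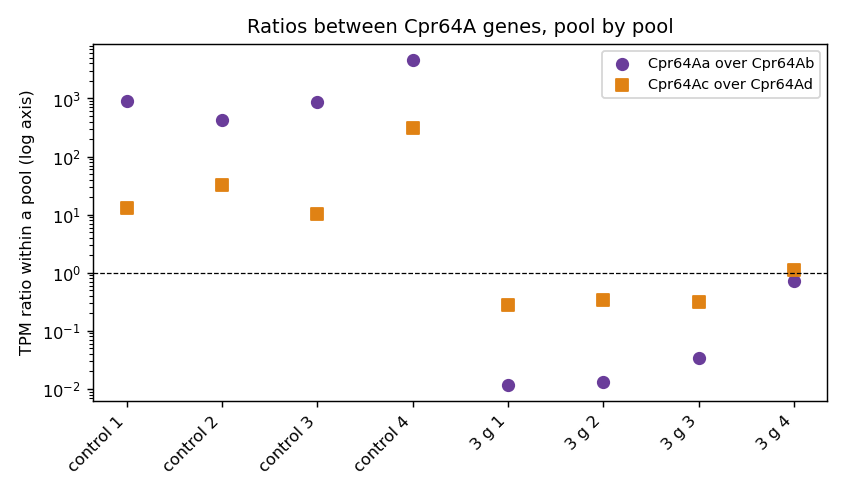
Ratio of TPM values between neighbouring Cpr64A genes in each pool, on a log axis, with a dashed line where both genes are equal. The 4 control pools sit between 10.3 and 4555 and the 4 pools at 3 g between 0.0118 and 1.10.

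The Cpr76B genes showed 3 patterns among 4 neighbours. Cpr76Bd, the longest protein of the 10, read 173, 328, 318 and 607 TPM in controls and 1.87, 1.59, 1.15 and 5.31 TPM at 3 g, a log2 difference of -6.95 ± 0.54. Of the members that were low at 3 g it had the most even controls, with the highest 3.52 times the lowest. Cpr76Ba read 31.6, 59.1, 110.1 and 12.1 TPM in controls and 0.08, 0, 0.08 and 0.29 TPM at 3 g, a difference of -6.07 ± 0.68. Here control replicate 4 was the lowest control, and the gene was listed at 0 in 3 g replicate 2.

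Cpr76Bb read 0.78, 1.02, 17.1 and 603 TPM in controls and 0.48, 0.08, 0.08 and 0.45 TPM at 3 g. Control replicates 1 and 2 were thus low as well, the lower of them 1.63 times the highest 3 g pool, and the mean of 156 ± 299 TPM (SD, n = 4) rested on replicate 4. Its log2 difference was -4.00 ± 2.08 with that pool and -2.12 without it. Cpr76Bc read 565, 153, 240.1 and 42.2 TPM in controls and 56.9, 373, 358 and 137 TPM at 3 g. The 2 groups overlapped across nearly their whole range, and the difference of 0.06 ± 1.01 was far smaller than the spread between pools. It was also the member for which control replicate 4 lay lowest against the other controls.

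In all, 9 of the 10 genes had no overlap between groups, 7 lower and 2 higher at 3 g. Among the 12044 genes whose mean reached 1 TPM, which include all 10, 12.5% had no overlap, 6.00% lower and 6.49% higher. Nothing is read from this, since the contrast chose the genes. The median log2 difference was -5.03 over the 10 and -0.02 over all genes tested.

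By control median the genes ran from Cpr64Aa (462 TPM), Cpr64Ac (338), Cpr76Bd (323), Cpr30B (285), Cpr30F (248) and Cpr76Bc (196) to Cpr76Ba (45.4), Cpr64Ad (9.47), Cpr76Bb (9.04) and Cpr64Ab (0.71). Each gene overlapped the next one in that order. At 3 g the order by median was Cpr64Ad (339.6 TPM), Cpr76Bc (248), Cpr64Ab (142), Cpr64Ac (108), Cpr64Aa (3.27), Cpr30B (2.33), Cpr76Bd (1.73), Cpr30F (1.00), Cpr76Bb (0.265) and Cpr76Ba (0.08). Neighbours there overlapped except across 2 steps, from Cpr64Ac to Cpr64Aa and from Cpr30F to Cpr76Bb.

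Summed over the 10, the level was 1264, 1324, 2590.2 and 14226 TPM in controls and 764, 981, 949.6 and 366 TPM at 3 g. Every control lay above every 3 g pool, with 0.126% to 1.42% of a library in controls and 0.0366% to 0.0981% at 3 g. Its make-up also differed. Cpr64Ab and Cpr64Ad together gave 0.0703% to 1.72% of the sum in controls and 29.0% to 77.8% at 3 g. The genes Cpr30B, Cpr30F, Cpr64Aa and Cpr64Ac gave 38.3% to 91.0% in controls and 11.6% to 31.9% at 3 g. As a share of all Cpr genes listed, the 10 gave 11.3%, 12.0%, 19.4% and 49.9% in controls and 15.2%, 12.6%, 6.73% and 6.12% at 3 g, so that these shares overlapped.

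**Figure D3:**
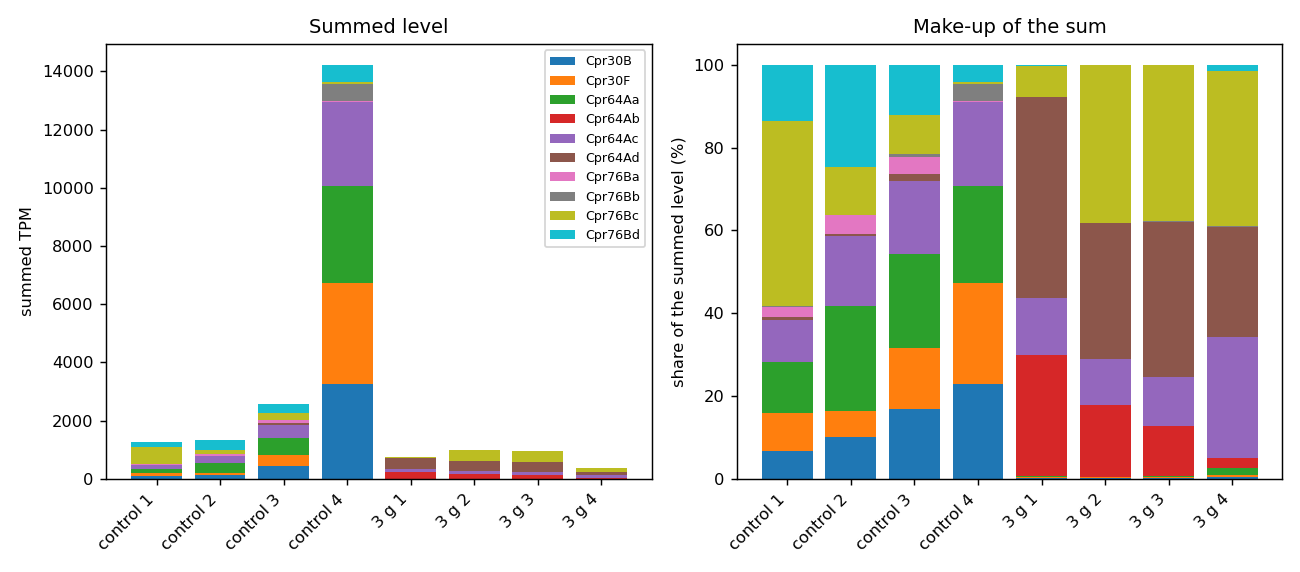
Left, TPM of the 10 genes stacked for each pool; right, the same as a percentage of each pool's sum. The sum reaches 14226 TPM in control replicate 4 and stays between 366 and 981 TPM at 3 g, where Cpr64Ab, Cpr64Ad, Cpr64Ac and Cpr76Bc make up nearly all of it.

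Control replicate 4 stood apart for these genes in both directions. On the log2 scale it lay at least 2 above the median of the other 3 controls for 5 of the 10 (Cpr30B by 4.61, Cpr30F by 4.91, Cpr64Aa by 3.31, Cpr64Ac by 3.69, Cpr76Bb by 8.63). It lay at least 2 below it for Cpr76Ba (-2.24) and Cpr76Bc (-2.49). Over all genes tested 1.16% lay at least 2 above and 1.04% at least 2 below. Control replicate 3 was the next highest for each of the 5 genes. The SD of control log2 values exceeded 1 for 8 of the 10, the exceptions being Cpr64Ab (0.44) and Cpr76Bd (0.74), against a median of 0.26 over all genes tested. For Cpr76Bb it was 4.15, and 4 of the 12044 genes had a larger one. At 3 g the widest was Cpr64Ab, with an SD of 2.09.

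Profiles were also compared between genes, within and across the clusters. They hold the contrast and the high control pool for which the genes were picked. Their likeness is therefore a description, and whether it follows the clusters was not tested. Profiles were centred on each gene's mean over the 8 pools, and the root mean square difference (RMS, log2 scale) was taken between genes. The closest of the 45 pairs were Cpr30B with Cpr64Aa (0.63), Cpr30B with Cpr30F (0.65), Cpr30F with Cpr64Aa (0.70) and Cpr64Aa with Cpr76Bd (0.80). Those 4 genes come from all 4 places. Cpr64Ab and Cpr64Ad were 1.44 apart. The median over the 13 pairs within the Cpr30, Cpr64A or Cpr76B group was 3.30, and over the other 32 pairs 2.67. The 13 pairs include Cpr30B with Cpr30F, which are not neighbours.

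By the same measure the closest gene outside the set, among 10270 whose mean reached 5 TPM, was CG34205 for Cpr30B (0.57) and Cpr30F (1.09). CG7214 was closest to Cpr64Aa (0.89), CG34461 to Cpr76Bd (0.39) and CG13050 to Cpr76Ba (0.69). CG34461 read 2909, 4674, 4326 and 6341 TPM in controls and 33.0, 37.8, 29.96 and 160 TPM at 3 g, far more abundant than Cpr76Bd. CG13050, at 874, 1178, 817 and 152 TPM in controls and 18.2, 9.32, 5.00 and 10.1 TPM at 3 g, shared with Cpr76Ba the low value in control replicate 4. For the genes higher at 3 g the closest were CG13049 to Cpr64Ab (0.70) and CG43235 to Cpr64Ad (0.41). CG13049 read 172, 118, 180 and 8.20 TPM at 3 g and 0.65 to 1.77 TPM in controls, again with the lowest 3 g value in replicate 4. CG33110 was closest to Cpr64Ac (0.44), CG13231 to Cpr76Bb (1.07) and CG17298 to Cpr76Bc (0.40). All these closest genes were picked for likeness over all pools, so shared high or low pools follow from that choice. The files name no function for these CG genes.

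The genes that flank the 4 places were looked up in the annotation and had not been chosen by their values. Of the 7 tested flanking genes and CG43367, which spans the Cpr64A cluster, 0 passed an adjusted p of 0.05. This came from the fit across all genes (limma with an intensity trend, Benjamini-Hochberg adjustment). In it 2 of them (CG17855 and CG42367) had an unadjusted p under 0.05. Over all 12044 genes tested, 4.28% passed and 1958 had an unadjusted p under 0.05 (limma), so nothing is read from so few genes. CG15005 and ImpL2, on the 2 sides of the Cpr64A cluster, had log2 differences of 0.04 ± 0.98 and 0.35 ± 0.32 (SE, n = 4 per group, adjusted p = 0.990 and 0.689, limma). ImpL2 encodes a secreted protein that binds insulin-like peptides. CG43367 was at 7.61 ± 0.60 TPM in controls and 8.81 ± 0.70 TPM at 3 g. Beside the Cpr76B genes, CG9452 and CG9279 differed by -0.55 and -0.36 (adjusted p = 0.685 and 0.747, limma). Beside Cpr30B, CG13113 was listed at 0 in every pool. CG42367, beside Cpr30F, read 557, 979, 485 and 11.0 TPM in controls and 0.60, 0.38, 1.03 and 245 TPM at 3 g (log2 difference -5.75 ± 2.11, adjusted p = 0.211, limma). There replicate 4 of each group stood apart from its other 3 pools in the opposite direction.

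The rest of the Cpr family also went both ways. Of 60 other Cpr genes listed, 52 were tested, of which 11 were lower, 3 higher and 38 not past the threshold. Over all genes tested 2.06% were lower and 2.23% higher (4.28% in all). The median log2 difference of the 52 was -0.29. The lowest adjusted p among those lower belonged to Cpr92F, with 230, 444, 529.7 and 985 TPM in controls and 12.3, 6.23, 5.63 and 13.8 TPM at 3 g (log2 difference -5.69 ± 0.47, SE, adjusted p = 7.15e-04, limma). Cpr62Bc fell from 922 ± 392 to 27.0 ± 23.8 TPM, Cpr92A from 152 ± 116 to 4.98 ± 1.86 TPM and Cpr49Ah from 444 ± 57.2 to 119 ± 47.6 TPM (SD, n = 4 each).

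The 3 that rose were Cpr35B, Cpr65Ec and Cpr47Eb. Cpr65Ec read 2.68, 5.62, 28.8 and 2.86 TPM in controls and 505, 507, 1736 and 70.1 TPM at 3 g (log2 difference 5.99 ± 1.05, adjusted p = 0.0223, limma). Like Cpr64Ad it was highest among controls in replicate 3 and lowest at 3 g in replicate 4. Cpr35B rose from 0.247 ± 0.156 to 6.22 ± 2.21 TPM and Cpr47Eb from 0.675 ± 0.541 to 14.8 ± 11.3 TPM. Both averaged under 1 TPM in controls and reached the mean of 1 TPM needed for testing only through the pools at 3 g. With no filter 3 other Cpr genes were still higher, and with a minimum mean of 5 TPM 2 were. Of the 52, control replicate 4 lay at least 2 (log2) above the median of the other controls for 12 and at least 2 below it for 4. Leaving out control replicate 2 left 5 lower and 1 higher, leaving out control replicate 3 left 5 lower, leaving out control replicate 4 left 1 higher, and leaving out 3 g replicate 2 left 6 lower. Cpr65Ec lost its call when control replicate 2, control replicate 4 or 3 g replicate 1 was left out. Cpr47Eb lost it when any 1 of 6 pools was left out, and kept it only without replicate 1 of either group.

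**Figure D4:**
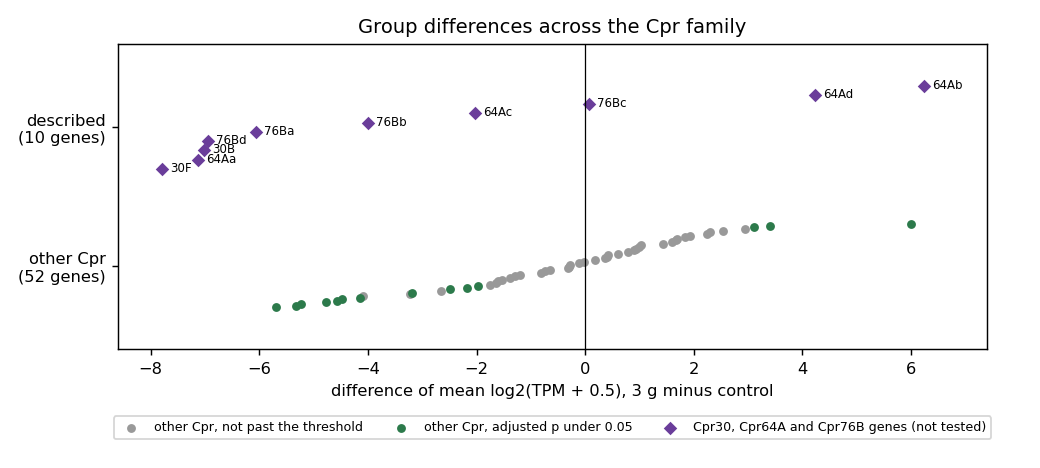
Difference of mean log2(TPM + 0.5) between 3 g and control for the 10 described genes (diamonds, not tested) and the 52 other Cpr genes tested (circles, green where the adjusted p was under 0.05), spread vertically in order of size. The 10 run from -7.80 (Cpr30F) to 6.24 (Cpr64Ab), and the others from -5.69 (Cpr92F) to 5.99 (Cpr65Ec).

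**Figure D5:**
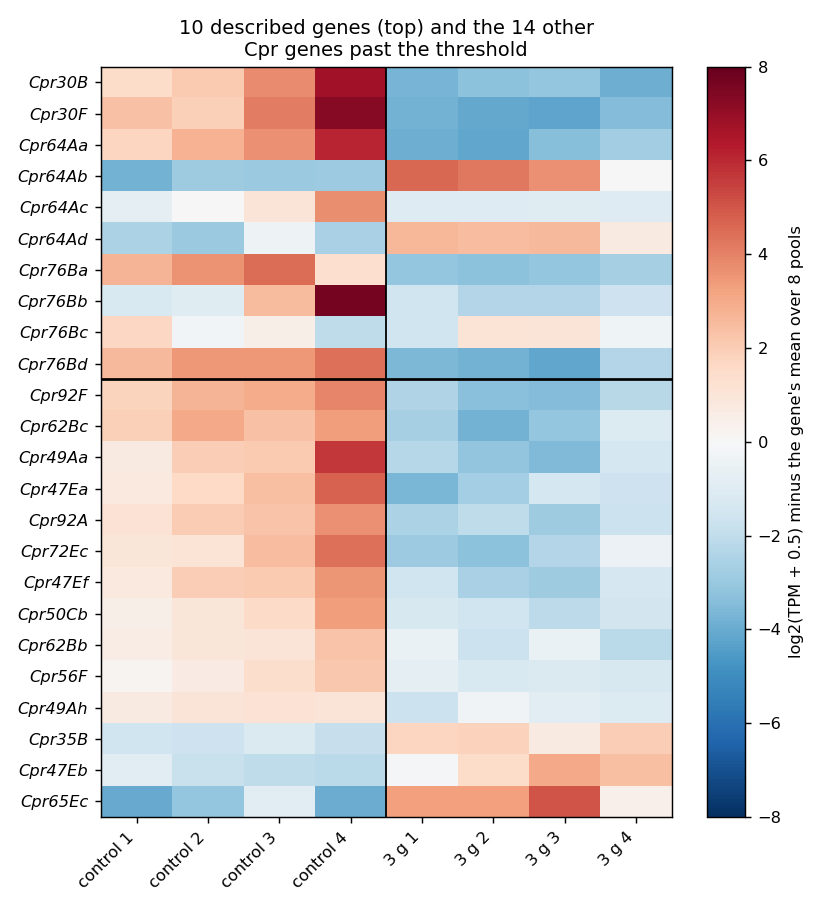
Each gene's log2(TPM + 0.5) minus its mean over the 8 pools, in red above and blue below the mean, for the 10 described genes above the line and the 14 other Cpr genes past the threshold beneath it. Control replicate 4 is the darkest column for Cpr30B, Cpr30F, Cpr64Aa and Cpr76Bb, and Cpr64Ab, Cpr64Ad, Cpr35B, Cpr47Eb and Cpr65Ec are red in most pools at 3 g.

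Other cuticle genes were read as lists, and where a list below had 0 genes in a direction it also had 0 there at an unadjusted p under 0.05 (limma). All 3 adult cuticle genes (Acp1, Acp65Aa and resilin, the elastic cuticle protein) were lower, with a summed level of 131 to 394 TPM in control replicates 1 to 3, 4627 TPM in control replicate 4 and 11.5 to 21.4 TPM at 3 g. Acp1 read 13.4, 42.9, 56.6 and 512 TPM in controls and 0.49, 1.66, 0.89 and 1.90 TPM at 3 g (log2 difference -5.31 ± 0.98, adjusted p = 0.0263, limma). The gene resilin fell from 184 ± 177 to 12.8 ± 3.81 TPM. Leaving out 1 library left 0 to 3 of them lower, with 0 when control replicate 3 was left out (limma, 3 at an unadjusted p under 0.05) and 1 when control replicate 2 or 3 g replicate 1, 3 or 4 was. Of the 4 prepupal and pupal cuticle genes 1 was higher, 0 lower and 3 not past. It was Edg78E, an ecdysone-dependent cuticle gene, with 18.9, 17.9, 41.5 and 89.4 TPM in controls and 1168, 855, 3413 and 152 TPM at 3 g (adjusted p = 0.0342, limma). It kept its call only when replicate 4 of either group was the pool left out, and 2 of the 4 genes passed without 3 g replicate 4. The median log2 difference of the 4 genes was 2.98. Their sum was 67.1 to 174 TPM in controls and 219 to 4966 TPM at 3 g, where Edg78E made up most of it in each pool.

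Of 27 tested genes of chitin synthesis and modification 2 were higher, 1 lower and 24 not past, with a median log2 difference of 0.26. The chitinase Cht4 rose from 1.58 ± 0.785 to 26.1 ± 17.0 TPM, and the chitin deacetylase Cda5 fell from 109 ± 11.6 to 42.1 ± 5.79 TPM (adjusted p = 0.00976 and 0.00241, limma). The chitin-binding protein gene obst-A rose from 322 ± 129 to 881 ± 151 TPM, and it was also the 1 of 10 genes higher in the list of epidermis and cuticle assembly (0 lower, 9 not past). It lost its call when any 1 of the 3 g pools, or control replicate 1 or 2, was left out. The 10 genes of epidermis and cuticle assembly, obst-A included, summed to 1610 to 2511 TPM in controls and 3099 to 5269 TPM at 3 g. At an unadjusted p under 0.05 (limma) 4 of them were higher and 0 lower, against 1958 of all 12044 genes in either direction. Among 18 tested genes of sclerotization and tanning 1 was higher, 2 lower and 15 not past. The fall of yellow-d2, from 111 ± 13.5 to 23.4 ± 2.37 TPM, had an adjusted p of 1.05e-04 (limma). That of yellow-e, from 44.6 ± 5.72 to 14.4 ± 8.26 TPM, lost its call when any 1 control, or 3 g replicate 2 or 3, was left out. The rise of yellow-e2 (adjusted p = 0.0474) did not pass without any 1 of the 8 pools.

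Of 16 genes of the ecdysone cascade 2 were higher, 0 lower and 14 not past. They were the transcription factors br, at 11.1 ± 3.70 TPM in controls and 85.3 ± 42.1 TPM at 3 g, and ftz-f1, a nuclear receptor needed in the prepupa, at 14.2 ± 8.72 and 61.5 ± 22.0 TPM (adjusted p = 0.0104 and 0.0254, limma). Only br passed when replicate 1 or 2 of either group, or control replicate 3, was left out.

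Markers of other tissues moved with the same contrast. All 13 tested genes of salivary glue and the prepupal salivary gland, out of 17 listed, were higher, with summed levels of 86.8 to 456 TPM in controls and 13332 to 32276 TPM at 3 g. A gene low in controls could reach the mean of 1 TPM needed for testing through its 3 g pools alone. That all tested genes were higher may therefore follow in part from the filter. With no filter 13 of the 17 were higher and 0 lower, and with a minimum mean of 5 TPM 11 were higher. Of 12 muscle genes 8 were lower, with sums of 3826, 6706, 5745 and 14206 TPM in controls and 1263 to 2077 TPM at 3 g. The muscle sum was thus highest in control replicate 4. That pool also had the highest control sum for adult cuticle, prepupal and pupal cuticle, tanning, neuronal and testis genes. The next control was close for prepupal and pupal cuticle (158 against 174 TPM). It was also close for neuronal (166.5 against 175 TPM) and testis genes (6990 against 7486 TPM). By the mean over genes of centred log2 values, the highest control was replicate 3 for prepupal and pupal cuticle and replicate 2 for testis. Control replicate 4 had the lowest control sum for salivary, epidermis, chitin and ecdysone cascade genes. By that mean, control replicate 2 was the lowest control for epidermis. For 6 of the 10 Cpr genes, picked partly for that pool, it was the highest control too. Of 6 fat body genes 2 were higher (sums of 1719 to 3503 TPM in controls and 5903 to 18521 TPM at 3 g). Of 6 neuronal genes 2 were lower (153 to 175 and 104 to 152 TPM). Of 12 testis genes none passed (limma, 0 also at an unadjusted p under 0.05). The testis sums were 3299.98 to 7486 TPM in controls and 5240, 888, 4869 and 4914 TPM at 3 g. Only 3 g replicate 2 lay below the controls. No marker of these lists was at 0 in every pool. The muscle count fell to 1 when control replicate 2 was left out and to 4 or 5 when control replicate 3 or any 1 pool at 3 g was. For the neuronal list 0 passed when replicate 2 or 3 of either group or 3 g replicate 4 was left out or after median-of-ratios or quantile scaling (limma, 3 to 4 at an unadjusted p under 0.05), and 1 when control replicate 1 or 4 was. What part these tissues or the stage of the pupae had in the values of the 10 genes was not tested.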

How the data were processed

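RNA of 8 pools of whole pupae, 4 per group, was sequenced as paired ends of 100 bp in 1 lane, per the labels. The submitters' processing notes name DESeq, eXpress 1.5.1, Bowtie2 2.1.0, Trimmomatic 0.30 and CASAVA, with no role. For genome build, annotation and use of strand nothing is given in the sources used here. The authors deposited 1 whole number per gene and library, taken here as a score equal to TPM times 100, since the table is named normalized TPM and each library sums to 1000000 after division by 100, within rounding. Whether a further scaling was applied is not given there. Depth is unknown, so no counting interval is given. A library had 13219 to 13388 genes above 0. The mean correlation of a library with the others of its group ran from 0.881 (3 g replicate 2) to 0.961, with 0.922 for control replicate 4.

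Values were divided by 100, genes whose mean reached 1 TPM were kept, and limma 3.58.1 (R 4.3.3) was run on log2(TPM + 0.5) (intensity trend, no covariate, Benjamini-Hochberg adjustment over 12044 genes, threshold 0.05). Of these, 516 passed (4.28%) and 1958 had an unadjusted p under 0.05. On simulated data for this comparison with 12044 genes, the fit called 35 of 50 genes changed 2-fold, 41 of 50 changed 4-fold, 43 of 50 changed 8-fold and 50 of 50 changed 16-fold. Unchanged genes made up 10 of its 179 calls. The changed genes were drawn from the more abundant ones, and each gene had normal noise with the same SD in both groups. The median SD of control log2 values was 1.71 for the 10 genes and 0.89 for the 52 other Cpr genes, against 0.26 over all. These rates need not hold for Cpr genes. Gene order, strand and protein lengths came from Ensembl release 115 and RefSeq for Release 6, used for names and neighbours only, and all 10 names matched. Figures used matplotlib 3.10.9.

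The 10 genes, the 11 lists and the naming rule were chosen with earlier results of these data known. Named genes were the 10, the nearest listed protein-coding genes beside them, up to 4 other Cpr genes per direction and up to 2 genes per list and direction by adjusted p (or the 1 with the lowest where none passed), and the gene of closest profile to each of the 10. Leaving aside the 10, which carry no test, 32 of the named genes passed the threshold. Of the 32, 18 did so whichever single library was left out. Many were named for a low adjusted p, so the count of 32 largely follows from the naming rule. Alternatives were other pseudocounts, filters and scalings, no trend, a replicate block and leaving out libraries.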

Additional observations from a re-analysis of the deposited data

Results flagged for a closer look

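In groups of 4 pools, Dixon's ratio is the gap beside the most extreme pool divided by the whole range of TPM. It was taken for the 10 genes, for their sum and for the other named genes except CG13113, which was listed at 0 in every pool. Ratios above the 95% critical value are given. For normally distributed values chance alone passes it in about 1 group in 20. The ratio was taken on TPM without a log, and the rate for such values was not tested. Of the 110 sets of 4 pools looked at, 23 passed. Nothing is read from that count, since genes that vary together pass together. A high ratio can also come from 3 pools that are nearly equal.

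The 10 genes were chosen partly for the high value of control replicate 4, so their ratios are descriptions and nothing is read from how many there are. Control replicate 4 was the highest control for Cpr30B (0.889), Cpr30F (0.913), Cpr64Aa (0.863), Cpr64Ac (0.882) and Cpr76Bb (0.973), and for the sum of the 10 (0.898). Control replicate 3 was the highest for Cpr64Ad (0.928). Control replicate 1 was the lowest for Cpr64Ab (0.839), at 0.17 TPM against 0.69 to 0.79 TPM.

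Of the genes named for a profile close to one of the 10, control replicate 4 was the highest control for CG7214 (0.868) and CG13231 (0.884) and control replicate 3 for CG43235 (0.836), while 3 g replicate 4 was the highest of its group for CG34461 (0.940). That choice favours the same pools, so these too are descriptions.

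Among genes beside the 10, control replicate 4 was the lowest control for CG17855 (0.848) and for CG43367 (0.936), where it read 6.71 TPM against 7.88 to 7.96 TPM. At 3 g, replicate 4 was the highest for CG42367 (0.997) and CG9452 (0.833), and replicate 2 the lowest for CG9279 (0.831). Among genes named from the lists and the Cpr family, control replicate 4 was the highest control for TpnC4 (0.836), resilin (0.835) and Acp1 (0.913), control replicate 3 for Cpr65Ec (0.887) and control replicate 1 for Fbp1 (0.969). At 3 g, replicate 2 was the lowest for Mst84Db (0.966).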

How the results depend on the processing

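The median log2 difference of the 10 genes lay between -6.10 (pseudocount 0.1) and -4.01 (control replicate 4 and 3 g replicate 2 both left out). No gene of the 10 changed sign except Cpr76Bc, which ran from -0.96 to 0.63. With a pseudocount of 0.1 the difference of Cpr76Ba was -7.73, since a smaller pseudocount widens differences from values near 0. Leaving out 1 library gave 162 to 479 genes past the threshold in place of 516, the lowest being 162 (control replicate 2 left out), 206 (control replicate 3), 275 (3 g replicate 2) and 335 (3 g replicate 4). It gave 1 to 3 other Cpr genes higher and 5 to 11 lower. With control replicate 4 and 3 g replicate 2 both left out, 228 genes passed, with 1 other Cpr gene higher. Other pseudocounts, filters and scalings and no trend left 2 to 3 other Cpr genes higher and 11 lower.

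With the replicate block 147 genes passed, with 1 other Cpr gene higher and 7 lower. The numbers were not taken as pairing, because deviations of same-numbered pools correlated at -0.38, -0.52, 0.06 and 0.08 over 12044 genes. No pool correlated best with its own number.

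Of the named genes, 5 that did not pass the threshold turned sign. Leaving out 1 library gave log2 differences from -0.73 to 0.66 for CG17298 (main value -0.07), from -0.99 to 0.52 for CG15005 (0.04), from -0.54 to 0.11 for CG9279 (-0.36) and from -0.187 to 0.068 for CG31712 (-0.09). Quantile normalization gave 0.0019 for CG17298. With control replicate 4 and 3 g replicate 2 both left out, CG15005 was at -1.38, CG9279 at 0.17 and ImpL2 at -0.042 (0.35). The cause was not tested. Read depth is unknown, which limits what can be said of values near 0 TPM.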

Other observations

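Among the other Cpr genes, 3 that did not pass the threshold had control replicate 4 far below the other controls and 3 g replicate 4 above the other pools at 3 g. They were chosen after their values were seen. Cpr66Cb read 1099.5, 1565, 1123 and 39.0 TPM in controls and 34.2, 52.3, 35.5 and 742 TPM at 3 g. Cpr66D read 785, 987, 883 and 169 TPM in controls and 91.4, 163, 174 and 507 TPM at 3 g. Cpr50Ca read 91.9, 62.5, 214 and 2.87 TPM in controls and 10.5, 12.3, 16.4 and 187 TPM at 3 g. In CG42367, beside Cpr30F, replicate 4 of each group was displaced in the same directions.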
